A study of Mus musculus with 23 samples.

Results

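In all, 6 crystallin genes were followed across livers and tumors of mice: Crybb3, Crybb1, Crybb2, Cryab, Cryl1, and Cryz. They were chosen by gene symbol, as 6 of the 48897 genes in the expression table, and Crybb3 headed the choice because its values in pre-metastatic liver lay far above those in control liver. The differences of Crybb3 between groups are therefore given as a description, with no test. The libraries came from male BALB/c mice that were aged 4 to 6 weeks when divided into groups, before surgery. Control liver came from 5 sham-operated mice whose cecal wall received serum-free medium. Pre-metastatic liver and primary tumor came from 9 mice, a liver and a tumor from each, 3 weeks after cells of CT26, a single BALB/c colon carcinoma line, were injected under the cecal serosa. All groups thus underwent surgery and an injection, and no gene was altered in any of the mice. The tumor libraries hold the injected cells together with whatever host tissue surrounded them.

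Crystallins are named for the vertebrate lens, where they make up most of the soluble protein and keep the tissue transparent. The family name joins unrelated proteins. The alpha-crystallins, Cryab among them, are small heat shock proteins that hold unfolding proteins in solution and are found in muscle, heart, and many other tissues. The beta- and gamma-crystallins (Crybb1, Crybb2, Crybb3) share a fold of paired Greek key motifs and are known mainly as structural proteins of lens fiber cells, although members of the family are also found in retina and brain. Cryl1 (lambda-crystallin, an L-gulonate dehydrogenase of the uronate pathway) and Cryz (zeta-crystallin, an NADPH-dependent quinone oxidoreductase) are enzymes of ordinary metabolism that some animals also use as lens proteins.

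Crybb3 lies on chromosome 5 of mm10 at chr5:113075839-113082233 on the minus strand, and its neighbor Crybb2 lies 5721 bases away on the same strand at chr5:113058258-113070117. The 250 bases before the RefSeq start of both genes (GRCm38.p6) are printed because these neighboring lens genes behaved so differently, with Crybb3 counted in every library and Crybb2 in none. The Crybb3 window is chr5:113081585-113081834, which is still inside the gene span of the authors' table, and the Crybb2 window is chr5:113070118-113070367. Both are written 5′ to 3′ on the gene's strand, and capitals mark TGCTGA or its reverse complement, the core letters of a Maf binding site. Maf proteins are transcription factors of lens fiber cells.
Crybb3: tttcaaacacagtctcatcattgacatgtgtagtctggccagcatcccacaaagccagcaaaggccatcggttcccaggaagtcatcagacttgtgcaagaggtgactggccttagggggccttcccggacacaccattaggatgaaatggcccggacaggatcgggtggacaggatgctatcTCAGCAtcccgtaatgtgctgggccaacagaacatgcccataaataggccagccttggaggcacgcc
Crybb2: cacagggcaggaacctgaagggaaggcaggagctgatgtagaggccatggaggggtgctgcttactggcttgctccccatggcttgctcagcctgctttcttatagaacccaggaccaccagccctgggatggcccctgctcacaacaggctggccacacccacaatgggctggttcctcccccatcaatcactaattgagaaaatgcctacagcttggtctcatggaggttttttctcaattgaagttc
The letters TGCTGA, on either strand, stood at positions -67 to -62 of Crybb3, counted back from the RefSeq start, and nowhere in the Crybb2 window. In windows not printed, they stood before Crybb1 (-84 to -79), Crygn (-228 to -223), and Cryba4 (-182 to -177, -135 to -130, and -77 to -72). They were absent before Cryl1 and Cryz. Crybb1 was at 0 to 6 counts in the livers and Cryba4 at 1 to 15, so the letters did not track the liver level. The GENCODE annotation lists 11 transcripts of Crybb3 with 10 start sites, and which of them the livers used was not tested. TGCTGA, on either strand, was found in 16.1% of the 32851 promoter windows of the same length. A further 6 motifs were searched on both strands, and none occurred in the Crybb3 or the Crybb2 window. The clock motifs were CACGTG, the E-box, which 6.02% of all windows hold, and TTATGTAA, the D-box, which 0.819% hold. AGGTCA, a motif of nuclear receptors, was in 14% of windows. The STAT motif TTCNNNGAA was in 7.02% of windows, and the heat shock motif GAANNTTC in 6.69%. The TATA box, TATAAA, was in 12.4% of windows. With a single match, no motifs overlap in the printed windows.

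Libraries held 44587556 to 79773163 counts, with a median of 55927997. Expression is given as RPKM, the count per kilobase of gene and relative to the library's total count. The labelled tissues were checked against markers: 5 hepatocyte genes summed to 35293 to 66532 RPKM in the livers and to 6.96 to 276 RPKM in the tumors. A list of 6 carcinoma keratin and adhesion genes summed to only 3.68 to 13.6 RPKM in the tumors, below every liver, so these markers do not identify the CT26 tumor. In the livers, 6 clock genes separated a late phase (mice M1, M2, M10, M12, and among the controls C7) from an early phase (the other 4 control livers and mice M4, M5, M6, M7, and M8), where M7 lay nearest the border with an index of -0.06. The labels give no time of collection. In bulk tissue, fewer cells of a type and less RNA per cell cannot be told apart.

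Crybb3 was close to silent in control liver and was a clearly counted transcript in every pre-metastatic liver. It stood at 0.310, 0.120, 0.0831, 0.305, and 0.148 RPKM in the control livers of mice C1, C4, C5, C6, and C7, which are 8 to 30 counts. In pre-metastatic liver it ranged from 10.1 RPKM in mouse M2 through a median of 13.6 to 35.4 in mouse M4, which are 724 to 3145 counts. The lowest pre-metastatic liver was thus far above the highest control liver, and the groups did not overlap. Their means were 0.193 ± 0.107 (SD, n = 5) and 17.4 ± 8.47 RPKM (n = 9), a ratio of 90.1. In the 9 primary tumors Crybb3 was at 0.0669 to 0.323 RPKM with a median of 0.169, which are 6 to 30 counts. Within a mouse, the liver exceeded the tumor by 52.4 to 530-fold, with a median of 86.1. The highest ratio was that of mouse M4, whose tumor held 6 counts, and without it the highest was 181.

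**Figure D1:**
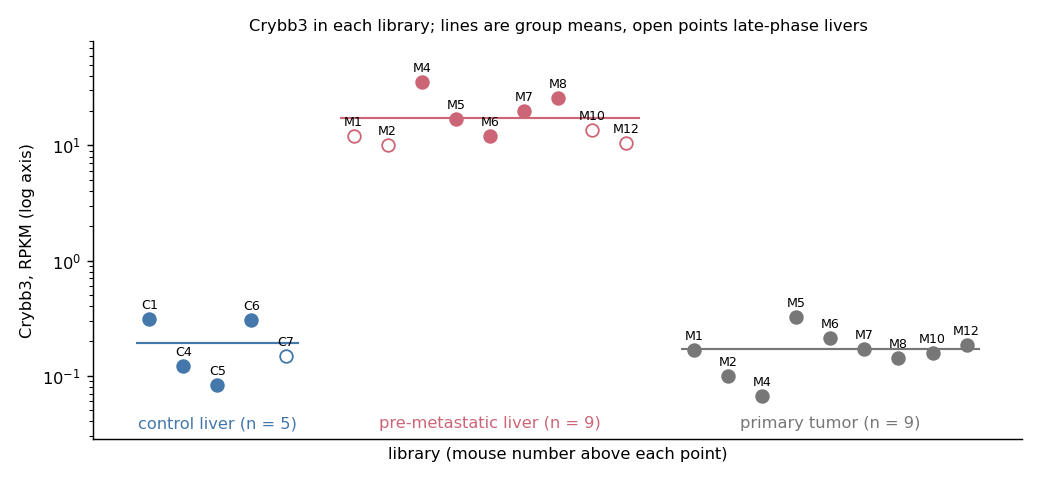
RPKM of Crybb3 (log axis) in each of the 23 libraries, with the mouse number at each point, a line at the mean of each group, and open points for late-phase livers. All 9 pre-metastatic livers lie at 10.1 RPKM or more, whereas control livers and tumors lie at 0.323 RPKM or less.

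The edgeR fit put Crybb3 at a log2 fold change of 6.56 ± 0.46 (SE) in pre-metastatic over control liver. This contrast belongs to the rule that chose the gene. By fitted fold change Crybb3 stood at rank 10 of 16989 genes tested. Genes ranked above it included Gm35636 (9.01), Fgf23 (7.84), and A2m (7.31), and just below it stood Cxcl5 (6.40), a neutrophil chemokine. On the scale of log2(RPKM + 0.1), the difference of the means was 5.85 for Crybb3, which was rank 2, and with a pseudocount of 1 it was 3.84, which was rank 9. The gap between the highest control and the lowest pre-metastatic liver was 4.64 on the first scale, the widest of all genes tested, followed by 3.99 for Prtn3, a neutrophil protease. With a pseudocount of 1 the gap was 3.09 for Crybb3 and 3.42 for Prtn3, which then ranked first. Within the early phase, Crybb3 was 0.205 ± 0.120 RPKM (n = 4) in control and 22.1 ± 9.0 (n = 5) in pre-metastatic liver. In the late phase it was 0.148 in the single control and 11.6 ± 1.61 (n = 4) in pre-metastatic liver.

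The genes around Crybb3 were absent or changed far less. Crybb2 had 0 counts in all 23 libraries, and 3 counts in a library would correspond to 0.0370 to 0.0662 RPKM. On the other side, 2900026A02Rik, the nearest gene with a count, was at 5.57 ± 1.01 RPKM in control and 7.01 ± 1.93 in pre-metastatic liver (log2 fold change 0.42, adjusted p = 0.0898, edgeR). Adrbk2, a G protein-coupled receptor kinase, rose from 0.613 ± 0.122 to 0.914 ± 0.200 RPKM (log2 fold change 0.65, adjusted p = 0.00570, edgeR). The other 4 nearest genes with a count in any liver (Myo18b, LOC108169063, and 2 unnamed transcripts) averaged 0.0596 RPKM or less in both kinds of liver.

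Besides Crybb3, 3 members could be tested between the livers, and 1 of them changed. Cryl1 fell, whereas Cryab and Cryz did not pass the test. Across all genes, 31.0% of the 16989 tested passed an adjusted p of 0.05, with 17.7% higher and 13.3% lower in pre-metastatic liver, so that 1 call among 3 genes is close to the background. Crybb1 and Crybb2 had too few counts in liver for the test.

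Cryl1, the uronate pathway enzyme, was at 7.33, 7.60, 13.6, 6.61, and 7.60 RPKM in control mice C1, C4, C5, C6, and C7. In pre-metastatic liver it ranged from 2.51 in mouse M6 through a median of 3.73 to 9.26 in mouse M2. Only mouse M2 reached into the control range. The means were 8.54 ± 2.84 (n = 5) and 4.82 ± 2.13 RPKM (n = 9), with a log2 fold change of -0.77 ± 0.24 (SE; adjusted p = 0.0248, edgeR). An exact two-sided rank-sum test on RPKM gave p = 0.0120. The call rested on control mouse C5: without it the log2 fold change was -0.55 and the adjusted p was 0.105 (edgeR).

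Cryab, the small heat shock protein, stood at 3.07, 2.47, 1.59, 2.63, and 2.38 RPKM in control mice C1, C4, C5, C6, and C7 and at 2.04 to 4.07 (median 2.77) in pre-metastatic liver. The groups overlapped broadly, and the log2 fold change was 0.28 ± 0.19 (SE; adjusted p = 0.278, edgeR). Cryz, the quinone oxidoreductase and the most abundant of these genes per length in liver, stood at 27.3, 30.3, 29.9, 33.6, and 35.7 RPKM in control and at 16.4 to 41.7 (median 28.6) in pre-metastatic liver. Its log2 fold change was -0.02 ± 0.14 (SE; adjusted p = 0.917, edgeR). Crybb1 stayed at 0 to 6 counts in every liver.

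Over all genes tested, 4.85% had every pre-metastatic liver above every control liver and 6.09% had every one below. Crybb3 was the only member among them.

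**Figure D2:**
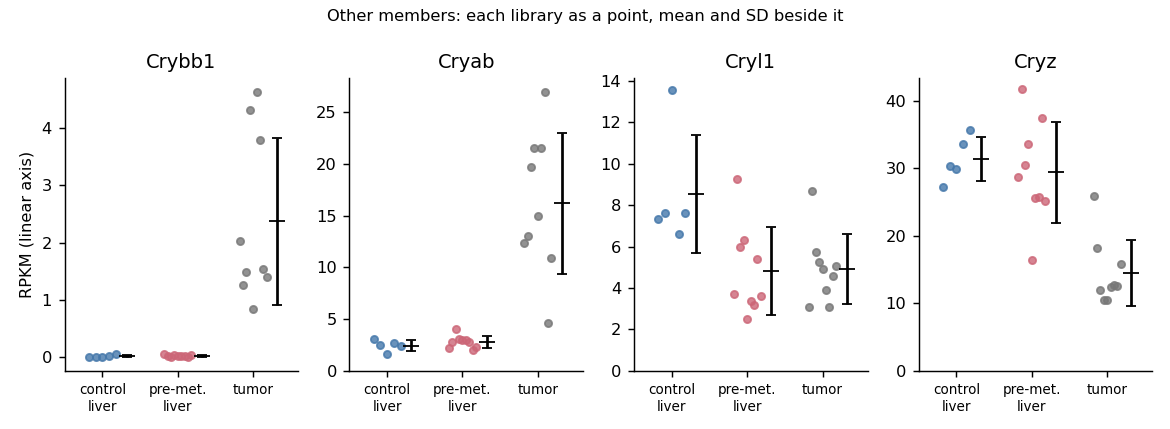
RPKM (linear axis) of Crybb1, Cryab, Cryl1, and Cryz in each library of the 3 groups, with the mean and SD beside the points. Crybb1 and Cryab are highest in the tumors, whereas Cryz is highest in the livers and Cryl1 in control liver.

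Of 18 further crystallins and crystallin-like genes, 17 were in the table and 6 could be tested between the livers. Of these, 2 rose and 1 fell, where 17.7% of all genes tested rose and 13.3% fell. Crygn, an evolutionary relative of the gamma-crystallins, rose from 0.565 ± 0.254 to 1.27 ± 0.710 RPKM (log2 fold change 1.21 ± 0.44, adjusted p = 0.0474, edgeR), at 8 to 31 counts in control and 11 to 78 in pre-metastatic liver. Aim1l, also called Crybg2, a large protein with beta/gamma-crystallin repeats, rose from 0.610 ± 0.273 to 1.21 ± 0.440 RPKM (log2 fold change 1.08 ± 0.30, adjusted p = 0.0125, edgeR). Cryzl1, a quinone oxidoreductase-like relative of Cryz, fell from 8.62 ± 0.722 to 5.49 ± 0.679 RPKM (log2 fold change -0.57 ± 0.09, adjusted p = 0.000324, edgeR), and its groups did not overlap. Aim1, Crybg3, and Crym, a thyroid hormone-binding protein, did not pass the test, with log2 fold changes of -0.19 to -0.12. The gamma-crystallins Cryga to Crygf were at 0 counts in all 23 libraries. Of the 23 crystallins in all, 11 reached 10 counts in some control liver, the same number as in pre-metastatic liver, and 12 did so in some tumor.

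Of 13 lens fiber genes, 4 could be tested between the livers and 0 passed with edgeR (median log2 fold change 0.22, against 0.01 over all genes). At an unadjusted p of 0.05 the same fit passed 1 of the 4, Pitx3, and DESeq2 called the same gene after adjustment. Lim2 and Gja3, a membrane protein and a gap junction protein of lens fibers, had 0 counts in all libraries, and Foxe3, a regulator of lens epithelium, had 0 counts in all livers. Of 8 lens regulators, 5 could be tested and 1 passed, against 31.0% of all genes tested between the livers. It was Mafg, a small Maf protein, which fell from 14.5 ± 1.83 to 8.22 ± 3.27 RPKM (log2 fold change -0.75, adjusted p = 0.0139, edgeR). Maf, Prox1, and Pax6 did not pass. Pitx3, a lens and midbrain homeobox factor singled out here after its values had been seen, varied widely among pre-metastatic livers. It was at 0.760 to 8.21 RPKM in mice M4, M5, M7, and M8, the 4 livers highest in Crybb3, and at 0.0183 to 0.153 in the other 5, against 0.0979 to 0.399 in control liver (log2 fold change 3.12 ± 1.28, adjusted p = 0.0768, edgeR). Mice M4, M5, M7, and M8 were all of the early clock phase, and of the other 5 only M6 was, so phase and Crybb3 level cannot be told apart here.

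Lists of genes related to the members by function were read against all genes tested, of which 17.7% rose and 13.3% fell, with a median log2 fold change of 0.01. Of 12 targets of the heat shock response, 10 fell and 0 rose (median log2 fold change -1.06), including Hsph1 (-1.46), Bag3 (-1.27), Dnajb1 (-1.22), and Hsp90aa1 (-1.09), all chaperones or co-chaperones. Of 7 other small heat shock genes, 5 could be tested, and Hspb1 (-2.07), Hspb8 (-0.82), and Hspb6 (-0.66) fell. Of 10 muscle genes, 6 could be tested and 0 passed with edgeR, 0 of them at an unadjusted p of 0.05, and DESeq2 called 0. Of 8 genes of the uronate and pentose pathway around Cryl1, Rgn (regucalcin, a gluconolactonase) rose by 1.46 on the log2 scale and Dcxr (xylulose reductase) had a log2 fold change of -0.57, and the other 6 did not pass. Of 9 quinone and NRF2 genes around Cryz, 4 fell, including Cbr1 (-1.21), Srxn1 (-1.18), and Nqo1 (-1.15), and Cbr3 rose (0.81). These values are log2 fold changes of the edgeR fit at an adjusted p under 0.05.

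Against the liver of tumor-bearing mice, Crybb1 and Cryab were higher and Cryz lower in the primary tumor, whereas the direction of Cryl1 depended on the scaling. These comparisons need a caution on scale. TMM factors, which scale each library to the bulk of its genes, differed by 1.18 on the log2 scale between tumor and pre-metastatic liver and by 1.08 between tumor and control liver. With TMM, the median log2 fold change over all genes was 0.13 and 0.18 in these comparisons. With library totals, as RPKM uses them, it was 1.30 and 1.26. The share of called genes that were higher in the tumor went from 52.5% with TMM to 76.0% with library totals against pre-metastatic liver, and from 53.7% to 75.7% against control liver. In the comparison of the livers it went from 57.1% to 46.0%, with medians of 0.01 and -0.07.

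With TMM, 83.3% of the 19751 genes tested differed between tumor and pre-metastatic liver (43.8% higher, 39.5% lower in the tumor), and 82.3% of 19322 differed between tumor and control liver (44.2% higher, 38.1% lower). A call for 4 of 4 testable members other than Crybb3 is therefore near the background. On RPKM, 52.9% of genes were higher and 14.2% lower in every tumor than in every pre-metastatic liver, and 56.4% and 17.1% against control liver. Both comparisons share the tumors, and their values are given side by side.

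Crybb1 was well counted in the tumors alone, at 0.841 RPKM in mouse M6 through a median of 1.54 to 4.63 in mouse M7, which are 82 to 525 counts. Mice M5, M7, and M8 lay at 3.79 RPKM or more and the other 6 at 2.03 or less. All tumors were above all livers, with a log2 fold change of 5.49 ± 0.48 (SE) over pre-metastatic liver (adjusted p = 1.48e-09, edgeR) and of 6.13 ± 0.74 over control liver (adjusted p = 1.17e-06, edgeR). Since the livers held 0 to 6 counts, these fitted folds depend on the fit's prior, and without control mouse C7, the one with 6 counts, the log2 fold change over control liver was 7.29. Crybb1 overlaps Cryba4, which runs on the opposite strand, over 9078 bases. Cryba4 was at 158 to 269 counts in the tumors and 1 to 15 in the livers (log2 fold change 3.63 over pre-metastatic liver, adjusted p = 9.26e-10, edgeR). The kit is not stated to mark strand, so reads in the shared stretch cannot be assigned with certainty to either gene.

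Cryab ranged in the tumors from 4.59 RPKM in mouse M10 through a median of 14.9 to 27.0 in mouse M8, and every tumor was above every liver. Its mean was 16.2 ± 6.84 RPKM (n = 9), with a log2 fold change of 1.34 ± 0.24 (SE; adjusted p = 3.25e-05, edgeR) over pre-metastatic and 1.64 ± 0.33 (adjusted p = 0.000278, edgeR) over control liver. With library totals these became 2.53 and 2.73. Cryab is abundant in muscle, and 10 muscle genes summed to 6.96 to 539 RPKM in the tumors, against 2.11 to 31.4 in pre-metastatic and 2.10 to 91.3 in control liver. The muscle sum was highest in the tumors of mice M4 (539) and M7 (134), whose Cryab was 19.7 and 21.5 RPKM, whereas Cryab was highest in mouse M8, with a muscle sum of 20.4. The part of muscle tissue in the Cryab level was not tested.

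Cryz was lower in the tumors, at 10.4 RPKM in mouse M6 through a median of 12.6 to 25.8 in mouse M1. The log2 fold change was -2.18 ± 0.18 (SE; adjusted p = 9.99e-10, edgeR) against pre-metastatic liver and -2.19 ± 0.19 (adjusted p = 1.74e-08, edgeR) against control liver, and -1.02 and -1.11 with library totals. Tumors overlapped with pre-metastatic livers in RPKM but not with control livers.

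Cryl1 was at 3.06 to 8.70 RPKM in the tumors (median 4.90), close to the 2.51 to 9.26 of pre-metastatic liver. With TMM its log2 fold change was -1.13 ± 0.22 (SE; adjusted p = 0.000101, edgeR), but with library totals it was 0.03 ± 0.24 (adjusted p = 0.915), so no direction can be given for it between tumor and pre-metastatic liver. Against control liver it was lower on both scales, at -1.88 ± 0.23 with TMM (adjusted p = 9.71e-07, edgeR) and -0.80 with library totals (adjusted p = 0.00492, edgeR). For Crybb3, the log2 fold change of tumor over control liver was -1.28 with TMM and -0.19 with library totals, at 6 to 30 counts.

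**Figure D3:**
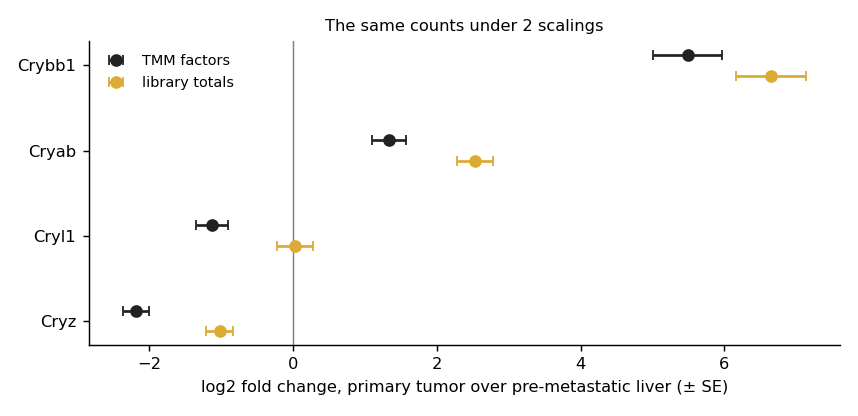
Log2 fold change of primary tumor over pre-metastatic liver with its SE for Crybb1, Cryab, Cryl1, and Cryz, from the same counts scaled by TMM factors or by library totals. The totals move every gene to the right, and Cryl1 moves from -1.13 to 0.03.

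Of the further crystallins, 8 could be tested between tumor and pre-metastatic liver, of which 4 were higher and 3 lower with TMM. Over all genes tested 43.8% were higher and 39.5% lower, so these counts are near the background. Cryaa, the other alpha-crystallin and a lens protein, was at 3 to 290 counts in the tumors and 0 to 4 in the livers (log2 fold change 4.55 ± 0.84, adjusted p = 5.34e-05, edgeR). Aim1l (-5.76), Crygn (-5.42), and Crym (-3.91) were lower in the tumor, and also in RPKM, where their means went from 1.21 to 0.0505, from 1.27 to 0.0628, and from 8.59 to 1.30. Of 8 uronate and pentose genes, 7 could be tested and 6 were lower, against 39.5% of all genes tested. Among them were Rgn (-11.41), Xylb (-8.51), and Sord (-5.63).

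Whether a member's level in the tumor followed its level in the liver of the same mouse was asked for the 5 members that varied, over 9 mice. After adjustment over these 5 relations, none passed in either measure. At an unadjusted p of 0.05, 0 passed by Spearman's rho and 2 by Pearson's r, all in exact permutation tests. Cryab gave a Spearman's rho of 0.68 (exact permutation p = 0.0503, adjusted p = 0.166) and a Pearson's r of 0.71 (exact p = 0.0337, adjusted p = 0.0842), and without mice M4 and M10, the farthest from the median in the liver, r was 0.65. This relation went with the clock phase: in the early-phase mice Cryab was 2.73 to 4.07 RPKM in liver and 14.9 to 27.0 in tumor, and in the late-phase mice 2.04 to 2.77 and 4.59 to 13.0. With ranks centered within phase, rho was 0.03 (exact permutation p = 1.0 over pairings within phase). Cryl1 gave a rho of 0.65 (exact permutation p = 0.0666, adjusted p = 0.166) and an r of 0.72 (exact p = 0.0267, adjusted p = 0.0842). Its centered rho was 0.69 (exact permutation p = 0.0576, adjusted p = 0.288). Without mice M2 and M5 the Cryl1 relation was weaker, with an r of 0.37 and a rho of 0.29, and M2 was highest in both tissues. For Crybb3, Crybb1, and Cryz, rho was -0.27, 0.27, and 0.25, with exact permutation p of 0.493, 0.493, and 0.521 and Pearson's r of -0.36, 0.21, and 0.29 (exact p = 0.346, 0.587, and 0.432). Without the 2 mice farthest from the median in the liver, r was 0.50 for Crybb3, 0.25 for Crybb1, and -0.28 for Cryz.

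The genes most like Crybb3 across all 14 livers were ranked by Spearman's rho of RPKM over 16988 genes, which is a description with no test, since the livers share 2 groups, clock phases, and library sizes. In all, 24 genes reached a rho of 0.9 and 26 reached -0.9. Highest were Gm40444, a long noncoding RNA (0.95), Gm5093 (0.95), Adarb2, an RNA deaminase relative of brain (0.93), Gm15348 (0.93), Dbi, the acyl-CoA-binding protein (0.93), Slc22a7, an organic anion transporter (0.92), Col15a1, a basement membrane collagen (0.92), Ctsc, the lysosomal protease cathepsin C (0.92), 2200002D01Rik (0.92), and Fas, the death receptor (0.92). Gm5093 begins 1010 bases beyond the end of Slc22a7, so these neighbors on chromosome 17 may not count separately. Slc22a7 was at 0.407 to 3.77 RPKM in control and 10.9 to 71.9 in pre-metastatic liver, and Dbi at 190 to 319 and 378 to 589. Some of these genes were near the floor. Adarb2 was at 0 to 0.00251 RPKM in control and 0.0160 to 0.118 in pre-metastatic liver, and Gm15348 at 0 to 0.0321 and 0.197 to 1.54.

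Lowest were Adora1, the adenosine A1 receptor (-0.96), Agt, angiotensinogen (-0.96), Dio3os (-0.94), Slco1a4, a bile acid and drug transporter (-0.94), and Baiap2l1, an actin-linked adaptor (-0.93). Slco1a4 was at 28.9 to 56.3 RPKM in control and 1.24 to 8.91 in pre-metastatic liver. With each group centered on its mean rank, the rho of these 15 genes was 0.73 to 0.84 for the high side and -0.89 to -0.80 for the low side. The genes were picked by their rho over the same livers. Where the groups do not overlap, that rho fixes the centered value, so centering is no separate check.

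**Figure D4:**
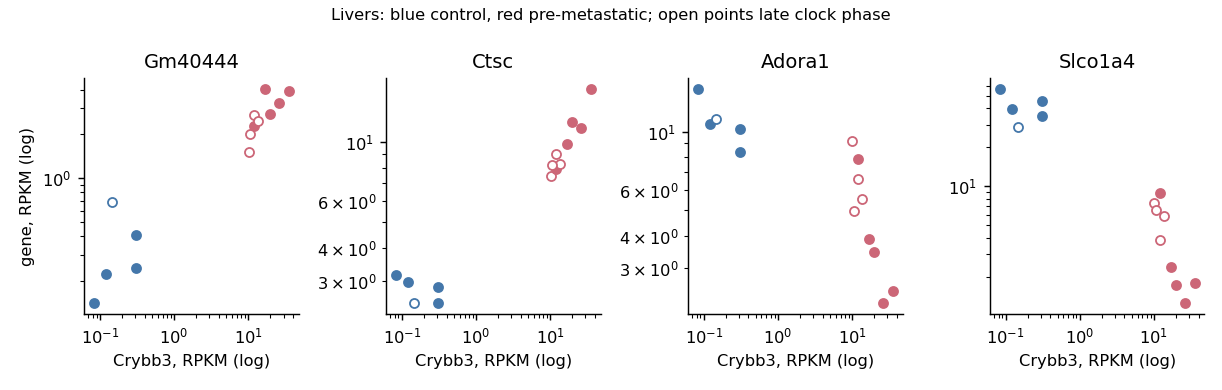
RPKM of Gm40444, Ctsc, Adora1, and Slco1a4 against RPKM of Crybb3 (both log axes) in 5 control livers (blue) and 9 pre-metastatic livers (red), open points being late phase. All 4 genes separate the groups or nearly so, and among the pre-metastatic livers Ctsc rises and Adora1 and Slco1a4 fall with Crybb3.

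Within the 9 pre-metastatic livers the step between groups plays no part. Of 16988 genes ranked there, 13 reached a rho of 0.9 with Crybb3 and 6 reached -0.9. With so many genes and 9 livers, chance alone brings some to such values, so the genes named are a description with no test. The highest were Pars2, the mitochondrial prolyl-tRNA synthetase (0.98), Cetn2, a centriole protein (0.97), Spdya, a cell cycle activator (0.97), Ctsc (0.95), C030037D09Rik (0.93), and, at 0.92 each, Hcrtr2, Dapk1, D11Wsu47e, and Praf2. Ctsc was the gene named on both scales: it was 2.47 to 3.16 RPKM in control liver and ran from 7.45 in mouse M2, the lowest in Crybb3, to 15.9 in mouse M4, the highest. Several of the others spanned a narrow range, with Pars2 at 0.807 to 1.41 RPKM and D11Wsu47e at 1.29 to 2.42. Spdya, at 0.0592 to 0.185 RPKM, and Hcrtr2, at 0.00834 to 0.281, were low in these livers. The lowest were Gm41330, Mroh2a, and Vps13a (-0.93 each) and Csnk1g3 and Dnase2b (-0.92 each). Gm41330 was near the floor, at 0.00392 to 0.0707 RPKM. Dnase2b, the DNase that removes DNA from maturing lens fibers, was at 1.39 RPKM in mouse M8 and 1.56 in mouse M4, the livers highest in Crybb3, and at 3.56 in mouse M2, the lowest.

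A slope of each gene on log2(RPKM + 0.1) of Crybb3 across these 9 livers tested such relations with edgeR, and 0.0% of 16207 genes passed an adjusted p of 0.05. At an unadjusted p of 0.05, 1375 genes (8.48%) passed, and the smallest adjusted p was 0.242. With single livers left out, 910 to 1583 passed at that unadjusted level. With clock phase as a second term of the edgeR fit, 859 did. Without that term, DESeq2 called 238 genes on the same counts, 96 rising and 142 falling with Crybb3. The slopes of the other members did not pass either, at 0.30 ± 0.16 (SE) for Cryab, -0.10 ± 0.26 for Cryl1, and -0.08 ± 0.16 for Cryz per log2 unit of Crybb3. Their rho with Crybb3 over the same livers was 0.45, -0.12, and 0.00, and it was 0.47 for Crygn, -0.52 for Aim1l, and -0.63 for Crym.

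None of the 14 liver programs scored passed the exact permutation test against Crybb3 after adjustment over the 14 relations. At an unadjusted p of 0.05, 1 passed by Spearman's rho. By Pearson's r the female-biased, clock index, and glucocorticoid scores passed at that unadjusted level. Each score was the mean standardized log2(RPKM + 0.1) of a gene list. The largest rho was -0.77, for 9 genes higher in female than male mouse liver (exact permutation p = 0.0214, adjusted p = 0.299), with a Pearson's r of -0.84 (exact p = 0.00459, adjusted p = 0.0508). Without mice M8 and M12, the farthest from the median of this score, r was -0.79. With ranks centered within clock phase, rho was -0.55 (exact permutation p = 0.174). Interferon-induced genes gave a rho of 0.62 (exact permutation p = 0.0857, adjusted p = 0.400, r = 0.58, exact p = 0.104), which within phase was 0.70 (exact permutation p = 0.0615). Without mice M4 and M5 this relation was weaker, with an r of 0.25 and a rho of 0.43. With single livers left out its rho was 0.45 to 0.79. Red cell precursor genes gave 0.52 (exact permutation p = 0.162, adjusted p = 0.566, r = 0.56, exact p = 0.112), and within phase 0.72 (exact permutation p = 0.0514). Without mice M4 and M10 their r was 0.35.

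For the clock index the livers fell into separate clusters, so no pooled correlation is given. With ranks centered within clock phase, its rho with Crybb3 was -0.14 (exact permutation p = 0.793). The 4 late-phase livers held Crybb3 at 10.1 to 13.6 RPKM and the 5 early-phase livers at 12.1 to 35.4, with mouse M6 the one early liver inside the late range. Acute phase, myeloid, PPAR alpha, SREBP2, glucocorticoid, integrated stress, unfolded protein, heat shock, male-biased, and cell cycle scores gave a rho of -0.37 to 0.40, and exact permutation p was at least 0.291 for each. The glucocorticoid score had a Pearson's r of -0.66 (exact permutation p = 0.0480, adjusted p = 0.224), which was 0.18 without mice M4 and M8. Between the groups, where 17.7% of all genes tested rose and 13.3% fell, the lists were counted in the same way. Of their tested genes, 18 of 20 acute phase, 11 of 12 SREBP2, 9 of 9 myeloid, 9 of 9 cell cycle, 5 of 9 interferon, and 5 of 6 red cell precursor genes rose in pre-metastatic liver, and 7 of 11 PPAR alpha targets fell. Of 8 female-biased genes, 1 fell and 0 rose, and of 8 male-biased genes, 3 rose and 0 fell. Of 9 glucocorticoid targets, 2 fell and 0 rose, and of 9 integrated stress genes, 4 rose and 1 fell. Of 8 unfolded protein genes, 0 passed. The summed level of the 9 myeloid markers was 7.17 to 19.7 RPKM in control and 11.6 to 128 in pre-metastatic liver, and that of 8 red cell markers 193 to 429 and 507 to 1099. The part of these cells in the Crybb3 level was not tested.

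**Figure D5:**
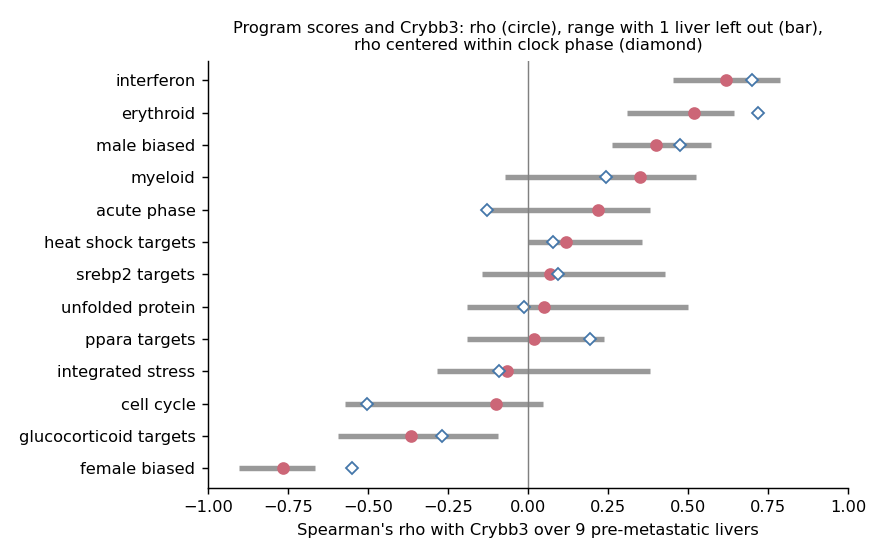
Spearman's rho between 13 program scores and Crybb3 over 9 pre-metastatic livers (circles), with the range when 1 liver at a time was left out (bars) and rho with ranks centered within clock phase (diamonds). The female-biased score lies lowest at -0.77 and the interferon score highest at 0.62, and many bars cross 0.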

How the data were processed

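Poly(A) RNA of 5 control livers, 9 pre-metastatic livers, and 9 primary tumors was sequenced from NEBNext Ultra libraries. Per the labels, the submitters' processing notes list HISAT2, HISAT, HTSeq 0.6.0, and mm10, with no role or order. For each gene the authors deposited the raw count of each library, not normalized, and its RPKM, the count scaled by gene length and by the library's total count. Groups came from the labels, which also tie the tumor and liver of a mouse by its number. Deviations of paired libraries from their group means correlated by -0.052 to 0.178.

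Counts were compared with edgeR 4.0.16 in R 4.3.3 (TMM, quasi-likelihood test, two-sided, Benjamini-Hochberg over all genes tested), on genes that reached 10 counts in 5 or more libraries. The threshold was an adjusted p of 0.05. Alternatives were DESeq2 1.42.0, no filter, single libraries left out, the early phase alone, and the mouse as a block. Library totals in place of TMM were added after seeing the data. For the Crybb3 slope, clock phase as a second term was a further alternative. The early clock phase is a clock index under 0, that is, the mean standardized level of 3 clock genes minus that of 3 opposing ones. Relations used Spearman's rho and Pearson's r with exact two-sided p over all pairings (Python 3.11.15, scipy 1.17.1), and rank-sum tests were exact. The Crybb3 fit was left without p. The steps were tested on simulated data.

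Members, lists, and tests were chosen with earlier results of these data known. Named genes are the members, the 10 genes highest and 5 lowest in rho with Crybb3 over 14 livers and over 9 (ties by Pearson's r), 3 neighbors on each side, and per list at most 4 called genes of the largest change, with exceptions named in the text. Some genes that this rule names are not reported here. List genes are named by the symbols of the table: Aim1 and Aim1l stand for Crybg1 and Crybg2, and Ahsp, Cryzl2, and Plin2 had no match. Of 8 crystallins looked up, 7 had a RefSeq promoter window and 6 of 6 members had a RefSeq gene. Precision is limited by the count behind each value. The edgeR p-values set a difference against the spread between libraries. The main fit of tumor against pre-metastatic liver did not use the pairing by mouse.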

Additional observations from a re-analysis of the deposited data

Results flagged for a closer look

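Of 34 sets of values (a crystallin in a group with at least 10 counts in a library), 4 held a library whose distance to its nearest neighbor took an unusually large share of the group's range. Chance marks about 1 in 20 such groups. Cryl1 was 13.6 RPKM in the control liver of mouse C5, against 6.61 to 7.60 in the other 4, and 8.70 in the primary tumor of mouse M2, against 3.06 to 5.72 in the other 8. Cryaa was 3.8 RPKM in the primary tumor of mouse M1, at 290 counts, against 0.0442 to 1.77 in the others. Crybg3 was 0.844 RPKM in the pre-metastatic liver of mouse M5, against 0.485 to 0.613 in the others. Leaving out control mouse C5 ended the call of Cryl1 between the livers. The cause of these values was not tested.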

How the results depend on the processing

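Recomputing 69 results under the alternatives gave 592 values, of which 560 were counted as the same. For tested values this means the same side of the threshold. For counts of calls and for values without a test it means a change within a set margin, and 28 values moved beyond it. The Cryl1 change between the livers was lost without control mouse C5, at -0.55 (log2; -0.93 to -0.55 over all single libraries left out). Cryl1 in tumor over pre-metastatic liver turned from -1.13 to 0.028 with library totals and to 0.069 on the log2(RPKM + 0.1) scale of the rank-sum comparison (exact p = 1.0). Those scales differ from TMM by construction. The number of genes related to Crybb3 went from 0 to 238 with DESeq2, and stayed at 0 with any liver left out, and the cause was not tested. Of the 5 relations between tumor and liver, 0 to 1 passed with a mouse left out: without mouse M8 Cryab passed (rho 0.90, adjusted p = 0.0228, exact permutation test). Among the 560 values counted as the same, 30 relations or fold changes that were not past the threshold changed sign. With the mouse as a block, 16331 genes differed between tumor and pre-metastatic liver against 16459 without it, and no member's call changed. Without the liver of mouse M4, highest in Crybb3, 0 programs and 0 genes passed. Crybb3 and Crybb1 folds of low counts are limited by depth.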
